A study of Mus musculus with 4 samples.

Results

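Histone lysine demethylases take methyl groups off the tails of histones, and each family prefers certain lysines. The KDM1 enzymes use flavin to act on H3K4, while the others carry a Jumonji C (JmjC) domain that needs iron and 2-oxoglutarate. KDM5B removes methyl groups from H3K4, a mark of active promoters, and is best known as a repressor of transcription. The probes examined here are those whose gene name on the array was Kdm5b, its paralog Kdm5a, or Kdm1a, Kdm2a, Kdm2b, Kdm3a, Kdm4a, Kdm4b, Kdm4c or Kdm6b. These 10 genes, of 27376 gene names on the array, were chosen by name, and 22 probes measured them. The questions were whether the other demethylases differed when Kdm5b was deleted, and where along Kdm5b signal was left.

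RNA came from the left ventricle of C57BL/6 mice at 7 days after myocardial infarction, caused by permanent ligation of the left anterior descending artery. Knockout (KO) mice carried a CRISPR/Cas9 deletion in Kdm5b, which per the study's methods removed the stretch encoding the JmjC domain and shifted the reading frame, and wild-type (WT) mice were their littermates. All mice had the infarction, were labelled male and were 8 to 10 weeks old, and the sources name no Cre or other means that would limit the deletion to a cell type. There were 2 arrays per group, numbered 2 and 3 in each, and they are called WT 2, WT 3, KO 2 and KO 3. Nothing in the labels says how many animals an array holds, so p-values measure only the spread between these samples.

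All 4 one-colour arrays lay on 1 slide with WT and KO at different positions, so slide position and genotype cannot be told apart. The share of the 41174 probes well above background was 68.2% to 72.0% per array. Both number 2 arrays carried Xist signal well above background (4.36 and 3.997 at its brightest probe, scaled as below) and no such signal of the Y-linked genes Kdm5d and Ddx3y, while both number 3 arrays had the reverse, although every sample is labelled male. The array number is therefore shown throughout. KO 2 stood apart in the atrial list (Sln, Myl7, Myl4 and Nppa, 3 of 4 well above background on all arrays). The list mean was 6.76 on KO 2 against 0.06 to 1.42 on the other arrays. In the adipocyte list, with 2 of 4 well above background on all arrays, the mean was 0.12 on KO 2 against -3.32 to -2.94. The adipocyte genes Adipoq and Plin1 were well above background on KO 2 alone. The 10 cardiomyocyte markers were well above background on all arrays, with means of 6.67 (WT 2), 5.67 (WT 3), 7.61 (KO 2) and 4.85 (KO 3).

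Values below are log2 processed signals minus the 75th percentile of the array, called scaled log2 signals, and differences are KO minus WT. A probe counts as well above background where the scanning software's own test says so. Probes were numbered from the 5′ end of the gene by their genome position. The sequences of 5 probes are given for reference. They are the 5′ and 3′ probes of Kdm5b, the targeted gene, and 3 of the 4 demethylase probes that span a splice junction and so match spliced RNA. The junction-spanning probe left out, Kdm2b probe 1, was not well above background on any array. Kdm5b probe 1 lies at chr1:136485365-136485424 and probe 2 at chr1:136528957-136529016 on the plus strand of mm9. Kdm5a probe 3 spans chr6:120380280-120381871 on the plus strand, Kdm4a probe 1 spans chr4:117815138-117816542 on the minus strand, and Kdm6b probe 1 spans chr11:69213554-69213698 on the minus strand. Each sequence is written 5′ to 3′ as on the array, and only the first 30 bases are shown for Kdm5b probe 2.
Kdm5b probe 1: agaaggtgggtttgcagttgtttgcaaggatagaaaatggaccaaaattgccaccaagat
Kdm5b probe 2: gaccagagccagtcctttaagccatgttct
Kdm5a probe 3: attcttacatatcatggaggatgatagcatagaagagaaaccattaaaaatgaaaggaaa
Kdm4a probe 1: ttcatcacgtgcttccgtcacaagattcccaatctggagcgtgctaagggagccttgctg
Kdm6b probe 1: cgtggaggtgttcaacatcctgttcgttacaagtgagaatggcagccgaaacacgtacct

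At both Kdm5b probes the signal was lower on both KO arrays than on both WT arrays, and on all 4 arrays both probes were well above background. The 5′ probe, which starts at base 577 of the cDNA it was designed on, had scaled log2 signals of -0.87 (WT 2), -1.81 (WT 3), -2.40 (KO 2) and -2.26 (KO 3). The 3′ probe starts at cDNA base 5801, 43592 bases further along the genome, and had -2.43, -3.40, -4.35 and -3.86 in the same order. At both probes WT 2 was the highest array and KO 2 the lowest. The KO mean was 50.1% of the WT mean at the 5′ probe (difference -0.996, SE 0.40, 95% interval -2.14 to 0.14) and 43.9% at the 3′ probe (difference -1.19, SE 0.45, interval -2.46 to 0.08), n = 2 per group. Neither passed the test, with limma adjusted p = 0.9999 for both and unadjusted p of 0.072 and 0.060.

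The 2 array numbers gave Kdm5b differences of unequal size. Between the number 2 arrays KO was 34.5% of WT at the 5′ probe and 26.4% at the 3′ probe, and between the number 3 arrays it was 72.8% at both. With 1 array against 1, this gap was not tested. The WT arrays themselves were 0.94 and 0.97 log2 units apart at the 5′ and the 3′ probe, a distance that 6.74% and 6.21% of all tested probes reached. At the other 19 tested demethylase probes the WT arrays were 0.004 to 0.29 apart. Leaving out WT 2 moved the Kdm5b differences to -0.53 and -0.70, leaving out WT 3 moved them to -1.46 and -1.68, and without KO 2 they were -0.93 and -0.94. Normexp background correction gave -0.68 and -0.42.

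Kdm5b signal on the KO arrays was set against the dimmest probe well above background on the same array. Being well above background itself, it could not lie below that probe, so only the distance is given. At the 5′ probe the signal was 3.01 log2 units above that dimmest probe on KO 2 and 3.57 on KO 3. At the 3′ probe it was 1.06 and 1.98 above it. Of the probes well above background, 33.8% on KO 2 and 37.0% on KO 3 were dimmer than the 5′ Kdm5b signal, and 9.85% and 17.9% were dimmer than the 3′ signal, which put the 3′ probe among the dim ones on both arrays. Whether the loss differed along the gene was asked by subtracting the 5′ value from the 3′ value within each array, which gave -1.56 (WT 2), -1.59 (WT 3), -1.94 (KO 2) and -1.59 (KO 3). The KO mean was 0.19 lower than the WT mean (exact permutation test, two-sided, p = 0.667), where 2 arrays against 2 cannot give a p below 0.3333, and normexp turned the difference to 0.27. In KDM5 proteins the JmjC domain lies between the JmjN and ARID domains of the N-terminal part and a C-terminal zinc finger region. The coordinates of the deletion are not given in the sources used here, so the probes were not placed against it, and a probe outside the deleted stretch does not check the deletion itself.

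Between and before the Kdm5b probes, 2 further probes on the plus strand lay within 20 kb of one of them, and they were chosen after their coordinates were seen. AK086430, a transcript name that Kdm5b probe 1 lists too, has a probe 1781 bases past the start of that probe. Its scaled log2 signals were -3.42 (WT 2), -3.28 (WT 3), -4.66 (KO 2) and -3.21 (KO 3), so KO 2 was low and KO 3 lay above both WT arrays. Its difference was -0.59 (95% interval -2.21 to 1.03). AK084525, whose probe lies 10371 bases before Kdm5b probe 1, was well above background on WT 2 alone and was not tested.

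**Figure D1:**
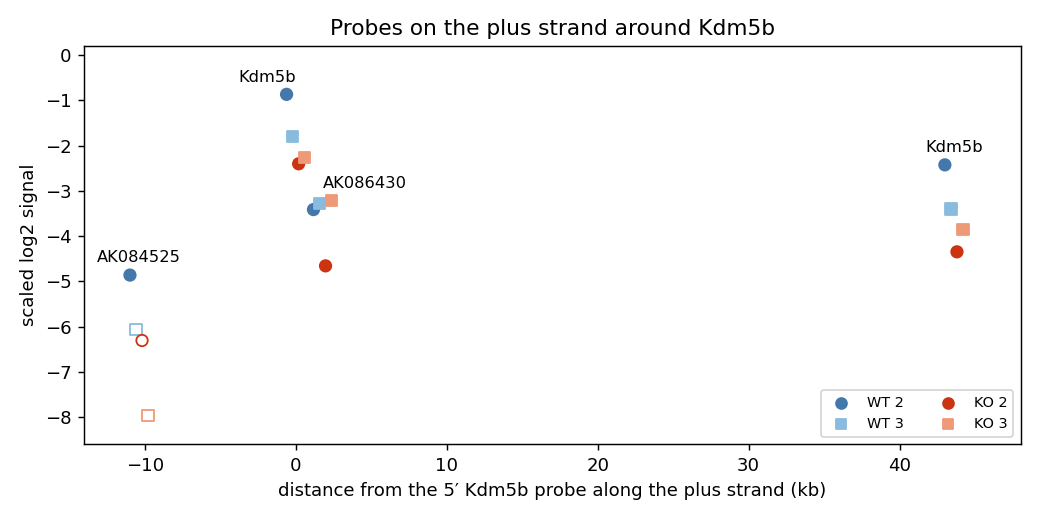
Scaled log2 signal (vertical axis) of plus-strand probes around Kdm5b against the distance of their starts from Kdm5b probe 1 in kb (horizontal axis), with 1 point per array, circles for number 2, squares for number 3 and open symbols where a probe was not well above background; points of a probe are set slightly apart. Both Kdm5b probes, 43592 bases apart, are filled on all 4 arrays with the KO points below the WT points.

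None of the other 9 demethylases passed the test. Of the 22 probes, 21 were well above background on all arrays and were tested, and 0 were called at a limma adjusted p under 0.05 with a fold change over 2, beside 0% of all 28305 tested probes. At limma's unadjusted p under 0.05 the count was 0 of 21, beside 1.45% of all tested probes. The methods' t-test, which takes no spread from other probes, put 3 of 21 under that limit before adjustment (Kdm3a probe 3, Kdm4a probe 1 and Kdm4c probe 2), beside 3.11% of all tested probes, and 0 after it. Without scaling, which moved the median of all tested probes to -0.32, limma's unadjusted p was 0.042 and 0.044 for the Kdm5b probes. Under normexp limma's unadjusted p was 0.11 at the 5′ probe and 0.25 at the 3′ probe. In the methods' t-test it was 0.17 and 0.16. The 3′ probe of Kdm5b was the 1 of 21 that was more than 2-fold lower in KO (2.35% of all tested probes), and 0 of 21 were more than 2-fold higher (1% of all tested probes). At the 19 probes of the other genes the differences ran from -0.46 to 0.33 with a median of -0.05, beside a median of 0.02 over all tested probes. The 95% interval lay within 2-fold in either direction at 17 of these 19, and the lowest and highest bounds were -1.42 and 0.91, so smaller changes cannot be told from none at most of these probes. Fewer cells of a type and less RNA per cell cannot be told apart in such whole-tissue RNA.

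**Figure D2:**
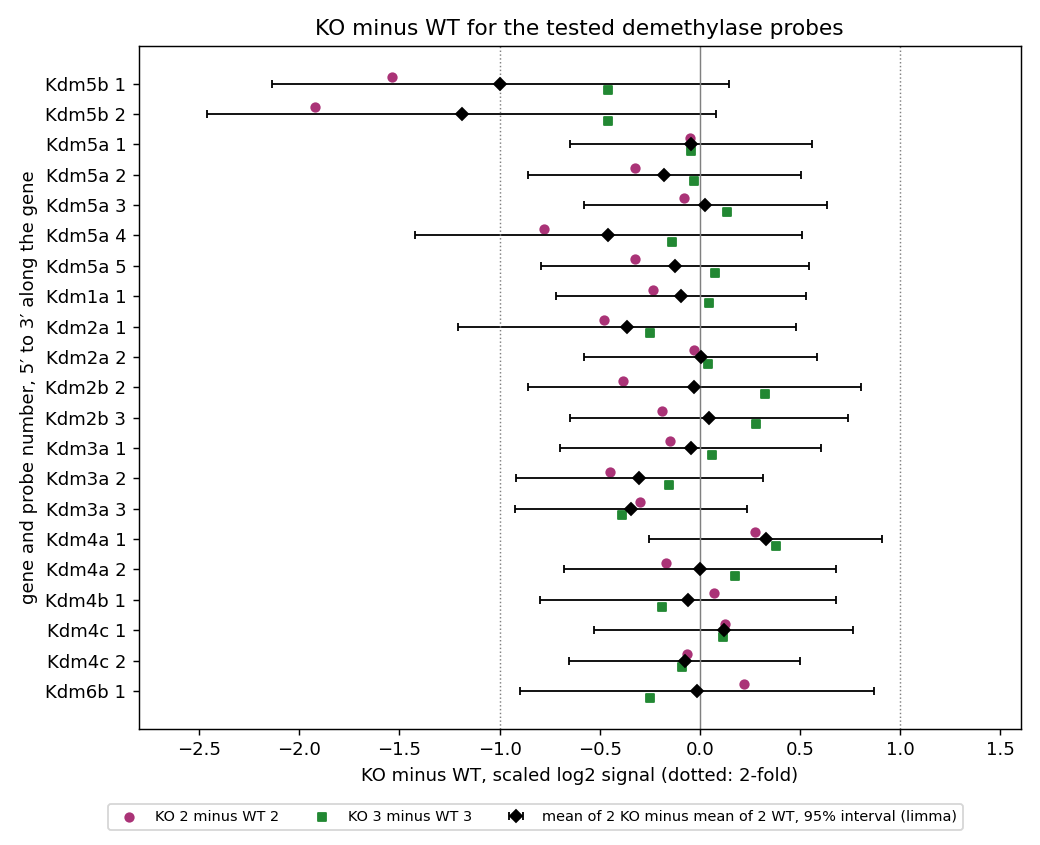
Difference of KO minus WT in scaled log2 signal (horizontal axis) for each of the 21 tested probes (vertical axis, gene and probe number). Diamonds with bars are the mean of 2 KO arrays minus the mean of 2 WT arrays with limma's 95% interval, circles and squares are the differences within array numbers 2 and 3, and dotted lines mark 2-fold; the Kdm5b probes lie farthest to the left and every interval crosses 0.

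Kdm5a, the closest paralog here and also an H3K4 demethylase, had 5 probes. Probe 1 (-0.16 (WT 2), -0.04 (WT 3), -0.21 (KO 2) and -0.08 (KO 3)) differed by -0.05 with an interval of -0.65 to 0.56. Probe 3, across a splice junction, had 1.32, 1.28, 1.24 and 1.42 and differed by 0.03 with an interval of -0.58 to 0.63. The groups overlapped at both, and at probe 3 the sign of so small a difference turned without scaling (-0.31) and after quantile normalization (-0.01). Probe 5 had -2.11, -2.19, -2.43 and -2.11, a difference of -0.13. Probes 2 and 4 list no RefSeq transcript. Probe 4 had -3.95, -3.85, -4.73 and -3.99, which put both KO arrays below both WT arrays by way of KO 2, and its difference of -0.46 was the largest among the other 9 genes. Its interval ran from -1.42 to 0.51, it was -0.09 without KO 2 and -0.83 without KO 3, and under normexp it turned to 0.18. Probe 2 had -4.56, -4.51, -4.89 and -4.54, a difference of -0.18 that was -0.0048 without KO 2 and -0.35 without KO 3, and that normexp turned to 0.38.

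Kdm1a (LSD1), the flavin-dependent H3K4 demethylase, had 1 probe with scaled log2 signals of 2.17 (WT 2), 2.12 (WT 3), 1.94 (KO 2) and 2.16 (KO 3). The groups overlapped, with a difference of -0.09 and an interval of -0.72 to 0.53.

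The KDM2 enzymes act on H3K36, and KDM2B also brings a variant Polycomb complex to CpG islands. Kdm2a probe 2 had 0.74, 0.66, 0.71 and 0.69 on WT 2, WT 3, KO 2 and KO 3, a difference of 0.00. Kdm2a probe 1, which lists no RefSeq transcript, had -0.55, -0.27, -1.03 and -0.52 and differed by -0.36, with overlapping groups, and by -0.11 without KO 2, -0.62 without KO 3 and -0.22 without WT 3. Kdm2b probes 2 and 3 lie side by side in the gene. Probe 2 had -2.61, -2.76, -2.99 and -2.44 and probe 3 had -0.87, -0.99, -1.06 and -0.70. In both, KO 2 was the lowest array and KO 3 the highest, so that the difference was -0.03 and 0.05 and the sign depended on the array number. Kdm2b probe 1 was not well above background on any array and was not tested.

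KDM3A removes H3K9 methyl groups. Kdm3a probe 3 had 1.43 (WT 2), 1.46 (WT 3), 1.13 (KO 2) and 1.07 (KO 3), with no overlap of the groups. The difference was -0.34 (SE 0.20, interval -0.92 to 0.24, unadjusted p = 0.17, limma adjusted p = 0.9999), and it was -0.30 and -0.39 within numbers 2 and 3. Probe 2 had -2.90, -3.03, -3.35 and -3.18, again with KO below WT, and a difference of -0.30 that normexp turned to 0.04. Probe 1, with no RefSeq transcript listed, had -2.67, -2.96, -2.82 and -2.90, a difference of -0.05 with overlapping groups.

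KDM4A, KDM4B and KDM4C act on H3K9 and H3K36. Kdm4a probe 1 was the only tested demethylase probe with both KO arrays above both WT arrays, at -4.00 (WT 2), -4.04 (WT 3), -3.72 (KO 2) and -3.66 (KO 3). Its difference of 0.33 (SE 0.20, interval -0.25 to 0.91, unadjusted p = 0.19) was -0.007 without scaling. Kdm4a probe 2 in the same gene had 1.78, 1.78, 1.61 and 1.95 and differed by 0.00, so the probes of Kdm4a did not show 1 pattern. Kdm4b had -0.22, -0.38, -0.15 and -0.56, a difference of -0.06. Kdm4c probe 1 differed by 0.12 (-2.51, -2.31, -2.39 and -2.20) and probe 2 by -0.08 (0.03, 0.06, -0.03 and -0.02). At probe 2 both KO arrays lay just below both WT arrays, and at probe 1 the groups overlapped.

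KDM6B (JMJD3) removes the repressive H3K27 mark and is induced in activated macrophages. Its junction-spanning probe had 0.99 (WT 2), 0.84 (WT 3), 1.21 (KO 2) and 0.59 (KO 3), so both extremes were KO arrays. The difference was -0.02, with an interval of -0.90 to 0.87.

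Both KO arrays were under both WT arrays at 6 of 21 tested demethylase probes, 2 of Kdm5b, 2 of Kdm3a, 1 of Kdm4c and 1 of Kdm5a, beside 10.9% of all tested probes. The reverse held at 1 of 21, beside 13.1%. At 10 of the 19 probes outside Kdm5b the sign differed between number 2 and number 3, beside 53.4% of all tested probes. Of the 7 genes with several tested probes, 3 (Kdm3a, Kdm4a and Kdm5b) had all of them on 1 side, with Kdm4a probe 2 at 0.00. Without scaling, which moved the median of all tested probes to -0.32, all 19 probes outside Kdm5b were lower in KO, and under normexp, which moved it to 0.13, 10 of 19 were higher.

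**Figure D3:**
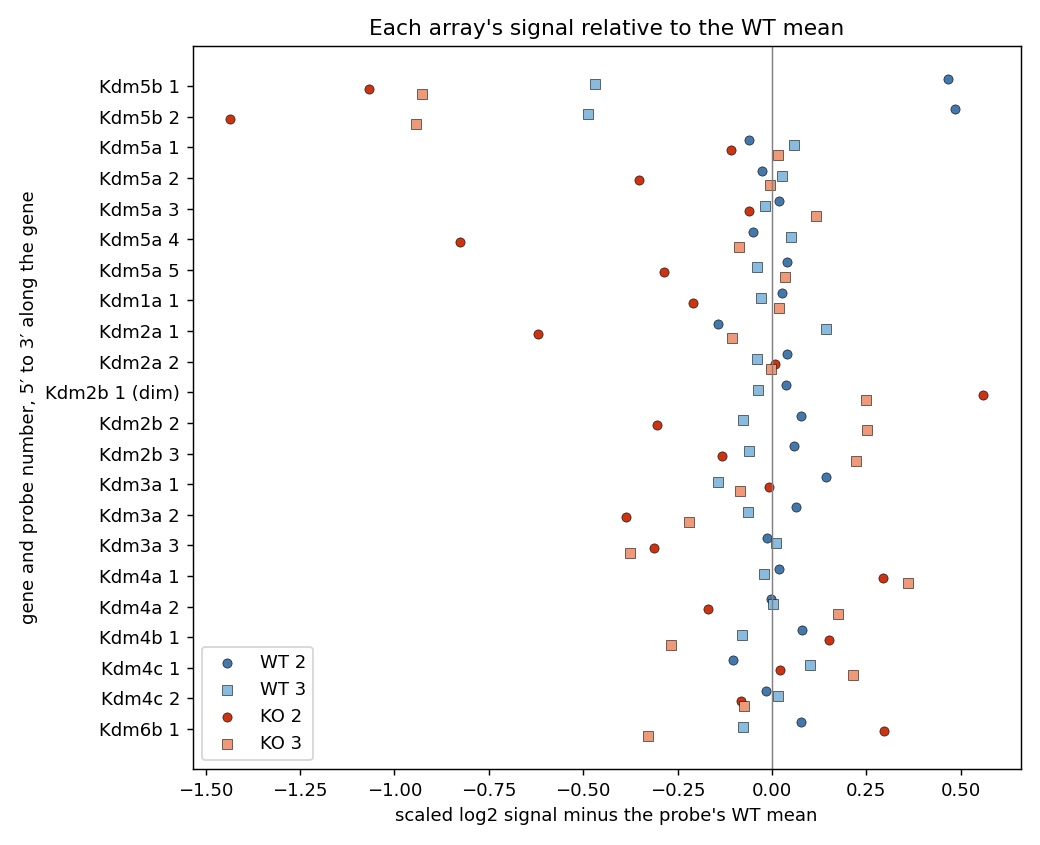
Scaled log2 signal of each array minus the mean of the 2 WT arrays (horizontal axis) for all 22 probes of the 10 demethylases (vertical axis, gene and probe number), with circles for number 2 and squares for number 3. The WT arrays are farthest apart at the Kdm5b probes, and the dim Kdm2b probe 1 was not well above background on any array.

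The X- and Y-linked relatives were divided by array number. Kdm5c, an X-linked KDM5 gene that escapes X inactivation, had 2.58 (WT 2), 2.06 (WT 3), 2.47 (KO 2) and 2.15 (KO 3) at its brighter probe. Kdm6a (UTX), an X-linked H3K27 demethylase that also escapes, had -1.21, -1.80, -0.84 and -1.91. Both were higher on the number 2 arrays. Kdm5d, the Y-linked KDM5 gene, was well above background on the number 3 arrays alone, at -1.004 on WT 3 and -1.15 on KO 3, and so were 2 of 3 probes of Uty, the Y-linked relative of Kdm6a. Phf8, an X-linked H3K9 demethylase, had 1.13, 1.38, 0.91 and 1.33, higher on number 3. KO minus WT was -0.01 for Kdm5c, 0.13 for Kdm6a and -0.13 for Phf8, and none of the 3 passed the test.

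**Figure D4:**
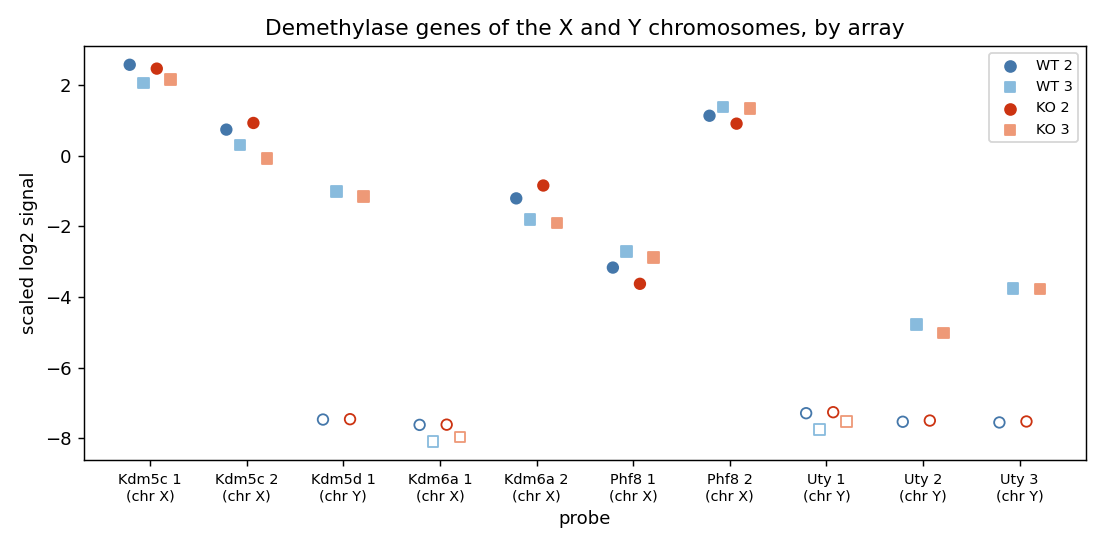
Scaled log2 signal (vertical axis) of each probe of 5 X- or Y-linked demethylase genes (horizontal axis, chromosome in brackets) on each array, with circles for number 2, squares for number 3 and open symbols where a probe was not well above background. Kdm5d and 2 Uty probes are filled on the number 3 arrays alone, while Kdm5c and the measured Kdm6a probe are higher on the number 2 arrays.

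Other genes of histone lysine methylation were described from lists, with the tested probe of highest mean for each gene. Of 17 other demethylases, 14 were tested and 0 were called, with a median difference of -0.02, both KO arrays below both WT arrays for 2 (10.9% of all tested probes) and above for 0 (13.1% of all tested probes). Those 2 were Jmjd1c (-0.15), a KDM3 relative, and Kdm7a (-0.10), which acts on H3K9 and H3K27. Of the genes listed as H3K4 methyltransferases or their shared subunits, 20 were tested and 0 called, with a median of 0.04. KO lay above WT for 3 and below for 3 of the 20, beside the same 13.1% and 10.9%, and the largest such differences were -0.17 for Kmt2e, 0.15 for the WRAD subunit Wdr5 and -0.15 for Men1 (menin).

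Among 19 other lysine methyltransferases 0 were called and the median was 0.02. Suv39h2, an H3K9 methyltransferase, had -4.82 (WT 2), -5.59 (WT 3), -4.27 (KO 2) and -4.70 (KO 3), and its difference of 0.72 was the largest in any of the lists with groups that did not overlap (unadjusted p = 0.14). It was 0.33 without WT 3 and 1.11 without WT 2. Only 1 of the 5 Suv39h2 probes was tested. Before scaling, its log2 signal on WT 3 was 4.34, beside 4.03 for the dimmest probe well above background on that array. Nsd3, an H3K36 methyltransferase, had -0.22, -0.17, -0.68 and -0.59, a difference of -0.44 (unadjusted p = 0.10). Setdb1, another H3K9 methyltransferase, differed by -0.36, and by -0.15 without KO 2, -0.58 without KO 3 and -0.22 without WT 3. Of 24 partner corepressors of LSD1 and KDM5, 0 were called, the median was 0.04, and KO lay below WT for 2 and above for 5, among them Sap30 of the SIN3 complex (0.24), Hmg20b of the LSD1 complex (0.21) and Morf4l1, which encodes the chromodomain protein MRG15 (0.19). Over all 77 tested genes of these lists, 0 passed limma's unadjusted p under 0.05, beside 1.45% of all tested probes. In the methods' t-test 3 of the 77 passed that limit, beside 3.11% of all tested probes. KO lay above WT for 10 and below WT for 11 of the 77, both near the 13.1% and 10.9% of all tested probes.

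Marker levels also moved between the arrays. The 4 proliferation genes Mki67, Top2a, Ccnb1 and Cdk1 were higher on both KO arrays than on both WT arrays (13.1% of all tested probes were), with list means of -0.81 (WT 2), -1.06 (WT 3), -0.44 (KO 2) and 0.33 (KO 3). The 10 fibroblast markers, all well above background on every array, had means of 5.27, 5.41, 4.44 and 5.33, and 3 of the 10 were lower on both KO arrays than on both WT arrays (10.9% of all tested probes were). The 8 macrophage markers measured had means of 3.51, 4.02, 2.38 and 4.24. KO 2 was lowest in both of these lists, in the neutrophil list (-1.39 against 0.92 to 1.65) and in the T and B cell list. It was highest in the cardiomyocyte, atrial, adipocyte and endothelial lists (endothelial 2.87 against 2.16 to 2.43). In the smooth muscle and pericyte list and the proliferation list it was neither. KO 2 was also the array with the lowest Kdm5b signal, and the part of the marker levels in the Kdm5b values was not tested.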

How the data were processed

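The authors scanned the arrays with Agilent Feature Extraction, and the deposited intensity is its background-subtracted and detrended processed signal (version 10.7.3.1, grid on mm9, per the file headers). They also deposited a table of log2 values. Its normalization is not stated, but 99.90% to 99.96% of the rows of an array lay within 0.01 of the quantile-normalized intensity. Its direction is that of the signal, it is not centred on genes, and each column has a median of 6.78. It served as an alternative.

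Control and outlier-flagged spots were left out and spots of a probe averaged. Each array's log2 intensity was shifted by its 75th percentile (876.3 and 976.1 for WT 2 and WT 3, 607.6 and 885.2 for KO 2 and KO 3), a scaling assumed because the methods name only GeneSpring. The test took the 28305 probes that were well above background on both WT arrays, on both KO arrays or on all, and left out 12863 dim probes and 6 with a missing value. In R 4.3.3, lmFit and eBayes of limma 3.58.1 gave the difference between the groups, and p-values were adjusted by Benjamini-Hochberg over all tested probes. The code was tested on simulated data. The number of arrays limits precision.

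All 10 demethylases were named with every probe. Of the listed genes, the X- and Y-linked demethylases were named, and per list the 3 with the largest difference among genes whose groups did not overlap. Members and lists were chosen with earlier results of these data known. Gene names and coordinates are those of the files. The alternatives changed the scaling, background correction, filter, block, test or array weights, or left out an array.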

Additional observations from a re-analysis of the deposited data

How the results depend on the processing

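No probe of Kdm5b, of the other demethylases or of the listed genes was called under any setting run. Both Kdm5b probes stayed lower in KO in all of them, at -1.33 and -1.52 without scaling (the lowest with 4 arrays) and -0.68 and -0.42 under normexp (the highest). Leaving out 1 array gave -1.46 to -0.53 for the 5′ probe and -1.68 to -0.70 for the 3′ probe. Normexp turned the difference between the Kdm5b probes to 0.27. Over all results, this one and the Kdm5b values included, 390 values with all arrays kept their direction or count and 31 turned, and the cause was not tested. Demethylase probes with an unadjusted p under 0.05 numbered 0 of 21 in limma and 0 to 3 over the settings, with 3 in the methods' t-test.

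Without scaling, which lowers KO on the whole, Kdm2a probe 2 turned to -0.33, Kdm2b probe 3 to -0.29, Kdm4a probe 1 to -0.0070, Kdm4a probe 2 to -0.33, Kdm4c probe 1 to -0.22, Kdm5a probe 3 to -0.31, Kdm6a to -0.20, Wdr5 to -0.19, Hmg20b to -0.13, Morf4l1 to -0.15 and Sap30 to -0.094. Quantile normalization and the authors' values gave -0.0078 and -0.0081 for Kdm2a probe 2, -0.045 and -0.046 for Kdm4a probe 2, -0.0122 and -0.0125 for Kdm5a probe 3, and -0.032 and -0.032 for Morf4l1. Under normexp, Kdm2a probe 2 was -0.039, Kdm2b probe 2 was 0.17, Kdm3a probe 1 was 0.18, Kdm3a probe 2 was 0.042, Kdm4a probe 2 was -0.040, Kdm5a probe 2 was 0.38, Kdm5a probe 4 was 0.18 and Kdm5a probe 5 was 0.032. A shift by the median turned Kdm2b probe 2 to 0.0020, Kdm6b to 0.014 and Kdm5c to 0.018.

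Leaving out 1 array in turn moved Kdm1a between -0.21 and 0.020, Kdm2a probe 2 between -0.037 and 0.044, Kdm2b probe 2 between -0.31 and 0.25, Kdm2b probe 3 between -0.13 and 0.22, Kdm3a probe 1 between -0.19 and 0.10, Kdm4a probe 2 between -0.17 and 0.18, Kdm4b between -0.27 and 0.15, Kdm5a probe 1 between -0.11 and 0.017, Kdm5a probe 3 between -0.060 and 0.12, Kdm5a probe 5 between -0.29 and 0.034, Kdm6b between -0.33 and 0.30, Kdm5c between -0.27 and 0.24, Kdm6a between -0.40 and 0.66, and Phf8 between -0.35 and 0.081. Without a turn but by over 1.5 times, it moved Kdm4c probe 1 (0.017 without WT 2, 0.022 without KO 3, 0.22 without WT 3 and 0.22 without KO 2), Kdm7a (-0.16 without WT 2 and -0.037 without WT 3), Kmt2e (-0.30 without KO 2 and -0.034 without KO 3), Men1 (-0.074 without KO 2), Hmg20b (0.13 without WT 2) and, as given above, Kdm5b, Kdm2a probe 1, Kdm5a probes 2 and 4, Suv39h2 and Setdb1.

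The labels number the arrays 2 and 3 in each group without saying what a number shares. As given above, both number 2 arrays carried Xist signal and both number 3 arrays carried Y-linked signal. The array number and this difference cannot be told apart. Deviations from the group means of same-numbered arrays had a correlation of 0.57 across probes. With the number as a replicate block, the Kdm5b differences were unchanged by construction at -0.996 and -1.19, with unadjusted p of 0.065 and 0.069 and adjusted p = 0.9949, and 602 probes instead of 410 had an unadjusted p under 0.05. Past 2-fold in either direction lay 949 probes, of which 29.8% were higher in KO, and the number was 1751 (6.34%) without scaling, 209 (39.7%) under normexp, 2110 (44.3%) with dim probes kept and 472 (34.1%) among probes well above background on all arrays. Leaving out an array gave 1087 to 5683. With 2 arrays a group, and a lone array assumed to vary like the other group where 1 was left out, small differences between dim probes cannot be resolved.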
